A study of Capra hircus with 6 samples.

Results

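The metalloproteinases of the extracellular matrix and the cell surface, with their tissue inhibitors, were followed by RNA sequencing in secondary hair follicle dermal papilla cells (SHF-DPCs) of the cashmere goat. These families were chosen with earlier results of these data known. Their genes were taken by symbol, as every row named MMP, ADAM, ADAMTS or ADAMTSL followed by a number, or TIMP1 to TIMP4. This gave 57 of the 15944 genes listed, namely 18 MMPs, 14 ADAMs, 16 ADAMTS genes, 5 ADAMTS-like genes and 4 TIMPs. The libraries were made from primary cultures of wild-type cells from skin. In the control group (Control, 3 libraries) the cells were grown without all-trans retinoic acid (ATRA), the active form of vitamin A. In the ATRA-treated group (ATRA, 3 libraries) they received 100 µM ATRA for 24 h. All 6 libraries carry the batch label 1. By the methods of the study, the goats were 3 years old and of the Albas breed, skin was taken during hair growth, passaged cells were used, and each group drew on 3 animals, but the labels do not tie a library to an animal.

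Matrix metalloproteinases (MMPs) are zinc enzymes that cut collagens, proteoglycans and other matrix proteins, either after secretion or at the cell membrane. ADAMs are membrane-bound relatives, many of which release the outer part of growth factors and receptors, a step called shedding. ADAMTS enzymes are secreted and trim proteoglycans and procollagens, while ADAMTS-like proteins share their domains but lack the catalytic part. Tissue inhibitors of metalloproteinases (TIMPs) block these enzymes, and in the hair follicle the dermal papilla sits in a matrix that is remodelled with each hair cycle.

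Each library held between 35532339 and 38012771 counts. The scaling factors that make libraries comparable (TMM, which assumes that most genes do not differ) were 0.842 to 0.851 in Control and 1.16 to 1.20 in ATRA, so levels are given as normalized CPM, that is, counts divided by the scaled library and brought to a common total. With library size as the only scaling, the median log₂ fold change (log₂FC, ATRA against Control) of all 12588 genes tested moved from 0.04 to 0.52, and every tested member moved up by 0.47 to 0.48. ATRA replicate 2 differed more from the other ATRA libraries than these did from each other. Of 19 listed markers of dermal papilla cells and dermal fibroblasts, 14 fell with ATRA, and their summed level went from between 89414 and 91262 normalized CPM in Control to between 4883 and 5184 in ATRA. In Control the list was led by the mesenchymal genes COL1A2, COL1A1 and VIM, with means of 28514, 27440 and 19158 normalized CPM. Of genes used to mark the papilla, ACTA2 (which encodes α-SMA) was at 6582 ± 462 (SD, n = 3), VCAN at 1641 ± 63.6, RSPO3 at 275 ± 6.27, LEF1 at 16.1 ± 1.63 and HEY1 at 5.75 ± 0.389 normalized CPM. PROM1 (which encodes CD133), ALPL, SOX2 and CORIN stayed below 0.5 normalized CPM in every library, so the papilla markers were present in part. The part of these shifts in the results below was not tested. In bulk samples, fewer cells of a type and less RNA per cell cannot be told apart.

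Of the 57 genes, 37 had enough counts to be tested. A differentially expressed gene (DEG) had a log₂FC above 1 or below -1 with an unadjusted p under 0.05 in edgeR's quasi-likelihood test. By this rule 6 members were higher with ATRA (16.2% of those tested) and 18 were lower (48.6%), while over all genes tested 13.7% were higher and 17.3% were lower. With library size as the only scaling, 9 members were higher and 16 lower, so that 36.0% of the member calls were upward in place of 25.0%. The words rose and fell are used below for a Benjamini-Hochberg adjusted p under 0.05 over all genes, with no fold threshold. On that rule 12 members rose and 23 fell (32.4% and 62.2%), against 40.9% and 38.7% of all genes, and 2 did not pass (MMP23B and ADAMTSL2). The 3 libraries of each group did not overlap, with ATRA higher, in 12 members and, with ATRA lower, in 22. Over all genes tested, 41.2% were apart in this way with ATRA higher and 39.0% with ATRA lower. The median log₂FC was -0.94 over the tested members and 0.04 over all genes. MMP9 and MMP17 passed the filter on low counts through the ATRA group alone, so their difference was partly fixed by the filter. Both are among the 6 members called higher.

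**Figure D1:**
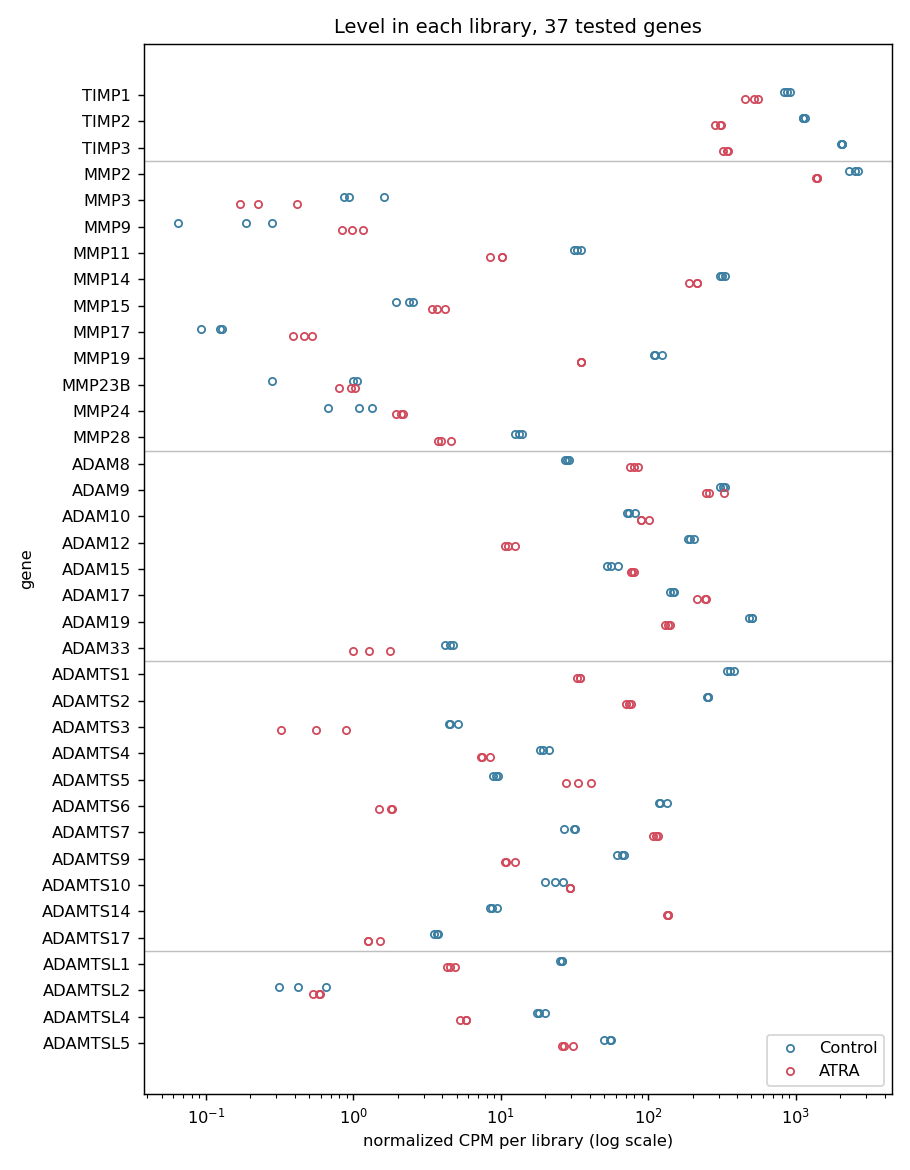
Normalized CPM (log scale) of the 37 tested genes in each library, with Control in blue and ATRA in red, and grey lines between families. ADAMTS6, ADAM12 and ADAMTS1 lie far to the left in ATRA and ADAMTS14 far to the right, while the groups overlap for ADAM9, MMP23B and ADAMTSL2.

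All 3 tested inhibitors fell, and TIMP3 fell most. TIMP3, which binds to the matrix and inhibits ADAM17 and the aggrecan-cutting ADAMTS enzymes as well as MMPs, was the most abundant inhibitor by reads in Control. It stood at 2049, 2020 and 2063 normalized CPM in the Control libraries and at 322, 343 and 347 in the ATRA libraries. Its mean went from 2044 ± 22.4 (SD, n = 3) to 337 ± 13.3, which was 6.06-fold lower (log₂FC -2.60, SE 0.0598, adjusted p = 1.15e-17 in edgeR). TIMP2, a secreted inhibitor that also takes part in the activation of pro-MMP2 by MMP14, was at 1159, 1113 and 1127 in Control and at 313, 284 and 307 in ATRA. This was 3.76-fold lower (log₂FC -1.91, SE 0.0599, adjusted p = 1.21e-15 in edgeR). Both genes had a gap between the groups many times wider than the spread within them.

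TIMP1, a secreted inhibitor of most soluble MMPs, fell by less than the fold threshold. Its levels were 917, 876 and 826 normalized CPM in Control and 552, 455 and 519 in ATRA (log₂FC -0.78, SE 0.0699, adjusted p = 8.41e-09 in edgeR). TIMP4 had 1 count in Control replicate 1 and 0 in each of the other libraries. As shares of all TIMP reads, TIMP1 went from a mean of 21.6% to 44.3% and TIMP3 from 50.5% to 29.5%, while TIMP2 went from 28.0% to 26.3%. TIMP1 was thus the inhibitor with the most reads in the ATRA libraries, a ranking by reads that is not corrected for gene length.

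Among the MMPs, the gelatinase MMP2 held most of the reads in both groups and fell with ATRA. MMP2, which cuts denatured collagen and basement membrane collagen, was at 2657, 2298 and 2506 normalized CPM in Control and at 1391, 1379 and 1382 in ATRA. Its mean went from 2487 ± 180.1 (SD, n = 3) to 1384 ± 6.29 (log₂FC -0.85, SE 0.0621, adjusted p = 4.66e-10 in edgeR), and it made up 83.7% of MMP reads in Control and 84.0% in ATRA. The other gelatinase, MMP9, had 2, 9 and 6 counts in Control and 42, 37 and 48 in ATRA (log₂FC 2.45, SE 0.411, adjusted p = 2.64e-05 in edgeR). MMP9 passed the filter on low counts through the ATRA group alone, so its fold, p-value and lack of overlap were partly fixed by the filter. Its mean in ATRA was only 0.99 normalized CPM, so the gelatinase reads remained almost entirely those of MMP2.

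The secreted collagenases listed, MMP1 and MMP13, which cut intact fibrillar collagen, were hardly detected. MMP1 had 4, 3 and 5 counts in Control and 2, 4 and 4 in ATRA, which overlapped, and MMP13 had at most 1 count in any library. Both stromelysins fell. MMP11, which acts on few matrix proteins, was at 35, 31.1 and 32.6 normalized CPM in Control and at 10.2, 8.39 and 10.1 in ATRA (log₂FC -1.78, SE 0.0928, adjusted p = 2.72e-12 in edgeR). MMP3, a broad matrix protease that also activates other MMPs, was at 1.61, 0.866 and 0.934 in Control and at 0.416, 0.227 and 0.169 in ATRA (log₂FC -2.05, SE 0.384, adjusted p = 9.17e-05 in edgeR). Its counts were 50, 28 and 30 in Control and 18, 10 and 7 in ATRA. Only its Control libraries all met the filter on low counts, so its difference was partly fixed by the filter.

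The membrane-type MMPs moved in both directions. MMP14, the membrane enzyme that activates pro-MMP2, was at 313, 306 and 331 normalized CPM in Control and at 189, 213 and 215 in ATRA (log₂FC -0.62, SE 0.0612, adjusted p = 2.92e-08 in edgeR). The other tested members of this class rose from low levels. MMP15 was at 1.93, 2.38 and 2.55 in Control and at 3.70, 4.15 and 3.38 in ATRA (log₂FC 0.71, adjusted p = 0.00122), and MMP24 was at 0.677, 1.08 and 1.34 in Control and at 1.94, 2.09 and 2.15 in ATRA (log₂FC 0.99, adjusted p = 0.00146). MMP17, which is held in the membrane by a lipid anchor, had 4, 3 and 4 counts in Control and 20, 23 and 16 in ATRA (log₂FC 1.96, SE 0.471, adjusted p = 0.000968). The libraries of MMP14, MMP15 and MMP24 did not overlap between groups. Nor did those of MMP17, but it passed the filter on low counts through the ATRA group alone. Its fold, p-value and lack of overlap were thus partly fixed by the filter. MMP16, which was not tested, had 0 counts in each Control library and 2, 4 and 10 in ATRA.

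Of the remaining MMPs, MMP19 and MMP28 fell to similar degrees. MMP19, a secreted enzyme of basement membranes, was at 123, 110.2 and 109.9 normalized CPM in Control and at 35, 34.8 and 34.8 in ATRA (log₂FC -1.71, SE 0.065, adjusted p = 2.13e-14 in edgeR). MMP28, also called epilysin and known from the epidermis, was at 13.8, 13.2 and 12.5 in Control and at 3.77, 3.92 and 4.57 in ATRA (log₂FC -1.69, SE 0.116, adjusted p = 1.77e-10 in edgeR). MMP23B, read from the row with the symbol MMP23, overlapped between groups, with 0.999, 1.05 and 0.28 in Control and 1.02, 0.794 and 0.967 in ATRA (log₂FC 0.25, SE 0.36, adjusted p = 0.522). Without the low library, Control replicate 3, its log₂FC was -0.15.

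Of the 8 ADAMs tested, 4 rose and 4 fell (ADAM9 among these, though its sign turned with library size as the only scaling), a split near the 40.9% and 38.7% of all genes. The largest change was that of ADAM12. ADAM12, a meltrin known from muscle and mesenchymal cells, was at 191, 184 and 205 normalized CPM in Control and at 11.2, 12.5 and 10.6 in ATRA. Its mean went from 194 ± 10.6 (SD, n = 3) to 11.4 ± 0.98, 17.0-fold lower (log₂FC -4.08, SE 0.0762, adjusted p = 6.93e-19 in edgeR). ADAM19, a related meltrin and a sheddase of neuregulin, was at 501, 479 and 505 in Control and at 129.7, 139.8 and 136 in ATRA (log₂FC -1.87, SE 0.0572, adjusted p = 8.27e-16 in edgeR). ADAM19 went from the most abundant ADAM by reads in Control to a place below ADAM9 and ADAM17 in ATRA. ADAM33, a mesenchymal ADAM linked to the airway, was at 4.19, 4.48 and 4.70 in Control and at 1.27, 0.998 and 1.76 in ATRA (log₂FC -1.73, SE 0.202, adjusted p = 3.06e-07 in edgeR).

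The main sheddases went the other way. ADAM17, which sheds TNF and several ligands of the epidermal growth factor receptor, was at 139, 146 and 149 normalized CPM in Control and at 215, 247 and 240.2 in ATRA (log₂FC 0.69, SE 0.0611, adjusted p = 6.69e-09 in edgeR). ADAM10, which sheds NOTCH receptors and cadherins, was at 71.7, 80.8 and 74.0 in Control and at 88.6, 101 and 89.7 in ATRA (log₂FC 0.30, SE 0.0683, adjusted p = 0.000532 in edgeR). ADAM15 was at 62.5, 52.3 and 55.9 in Control and at 79.7, 76.4 and 77.0 in ATRA (log₂FC 0.45, SE 0.0691, adjusted p = 1e-05 in edgeR). All 3 were below the fold threshold, and none had overlapping groups. ADAM9 did overlap, with 305, 322 and 333 in Control and 247, 324 and 257 in ATRA. Its log₂FC was -0.21 (SE 0.0815, adjusted p = 0.0249 in edgeR), but it was 0.27 with library size as the only scaling, so that no direction can be given for it.

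ADAM8, a sheddase best known from leukocytes, was the ADAM that passed the fold threshold upward. It was at 27.9, 28.7 and 27.0 normalized CPM in Control and at 79.7, 75.6 and 84.9 in ATRA, 2.87-fold higher (log₂FC 1.52, SE 0.0687, adjusted p = 3.07e-13 in edgeR). Of 8 listed leukocyte markers, 6 were below 0.5 normalized CPM in every library, while CD14 and CD68 rose, and the summed level of the list was 9.34 to 13.1 normalized CPM in Control and 41.3 to 44.3 in ATRA. The part of these markers in the values of ADAM8 and MMP9 was not tested. ADAM20, which was not tested, had 0, 1 and 1 counts in Control and 9, 14 and 15 in ATRA.

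The ADAMTS family held both the deepest fall and the steepest rise of all members. ADAMTS6, which acts on fibrillin-rich microfibrils, was at 121, 119 and 133 normalized CPM in Control and at 1.80, 1.5 and 1.84 in ATRA. Its mean went from 124 ± 7.83 (SD, n = 3) to 1.71 ± 0.188, 72.5-fold lower (log₂FC -6.18, SE 0.0969, adjusted p = 6.52e-20 in edgeR). Its close relative ADAMTS10 rose slightly, from 23.2, 20.0 and 26.6 in Control to 29.4, 29.2 and 29.5 in ATRA (log₂FC 0.34, SE 0.0904, adjusted p = 0.00248 in edgeR). ADAMTS17, of the same microfibril group, was at 3.70, 3.77 and 3.52 in Control and at 1.25, 1.25 and 1.52 in ATRA (log₂FC -1.45, SE 0.186, adjusted p = 1.04e-06 in edgeR).

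The procollagen N-proteinases, which remove the amino-terminal propeptide of fibrillar procollagens, moved in opposite directions. ADAMTS14 was at 8.44, 8.75 and 9.37 normalized CPM in Control and at 136, 134 and 137 in ATRA. Its mean went from 8.85 ± 0.474 (SD, n = 3) to 136 ± 1.28, 15.3-fold higher (log₂FC 3.94, SE 0.0717, adjusted p = 5.11e-19 in edgeR). ADAMTS2, the main such enzyme of skin, fell from 253, 249 and 253 in Control to 76.3, 70.6 and 74.3 in ATRA (log₂FC -1.77, SE 0.056, adjusted p = 1.38e-15 in edgeR). ADAMTS3, which also acts on pro-VEGFC, fell from 4.54, 5.10 and 4.42 to 0.324, 0.884 and 0.556 (log₂FC -2.98, SE 0.252, adjusted p = 3.65e-09 in edgeR). Reads of ADAMTS14 per read of ADAMTS2 were 0.033, 0.035 and 0.037 in Control and 1.79, 1.90 and 1.84 in ATRA, so ADAMTS14 passed ADAMTS2 in every ATRA library.

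Of the 4 tested proteinases of the hyalectans (versican, aggrecan and their relatives), ADAMTS5 rose and ADAMTS1, ADAMTS4 and ADAMTS9 fell. ADAMTS1, which cuts versican, was at 339, 355 and 380.4 normalized CPM in Control and at 34.4, 34.2 and 32.7 in ATRA, 10.6-fold lower (log₂FC -3.41, SE 0.0637, adjusted p = 7.07e-19 in edgeR). ADAMTS5, the strongest aggrecan-cutting enzyme known, was at 8.80, 9.30 and 9.53 in Control and at 27.4, 40.8 and 33.2 in ATRA, 3.67-fold higher (log₂FC 1.88, SE 0.121, adjusted p = 1.06e-10 in edgeR). ATRA replicate 2 was the highest of its group for ADAMTS5, which had the widest spread of the abundant members in ATRA. In each library, reads of ADAMTS5 per read of ADAMTS1 were 0.026, 0.026 and 0.025 in Control and 0.796, 1.19 and 1.02 in ATRA. These genes are next to each other among the coding genes of the ARS1.2 goat assembly, and they moved in opposite directions.

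ADAMTS9, a secreted versican-cutting enzyme, was at 65.9, 61.1 and 68.7 normalized CPM in Control and at 10.8, 12.5 and 10.7 in ATRA (log₂FC -2.52, SE 0.0831, adjusted p = 2.53e-15 in edgeR). ADAMTS4, another aggrecan-cutting enzyme, was at 18.4, 19.3 and 21.2 in Control and at 7.29, 8.37 and 7.42 in ATRA (log₂FC -1.35, SE 0.0991, adjusted p = 4.57e-10 in edgeR). Neither gene had overlapping groups. ADAMTS7, which cuts cartilage oligomeric matrix protein, was at 31.9, 26.8 and 31.5 in Control and at 116, 107 and 113 in ATRA, 3.73-fold higher (log₂FC 1.90, SE 0.0731, adjusted p = 2.62e-14 in edgeR). ADAMTS12, its closest relative, had 10, 9 and 6 counts in Control and 0 in each ATRA library, which is at least 3.75-fold lower when 3 counts per ATRA library are taken as the limit that a count of 0 allows.

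**Figure D2:**
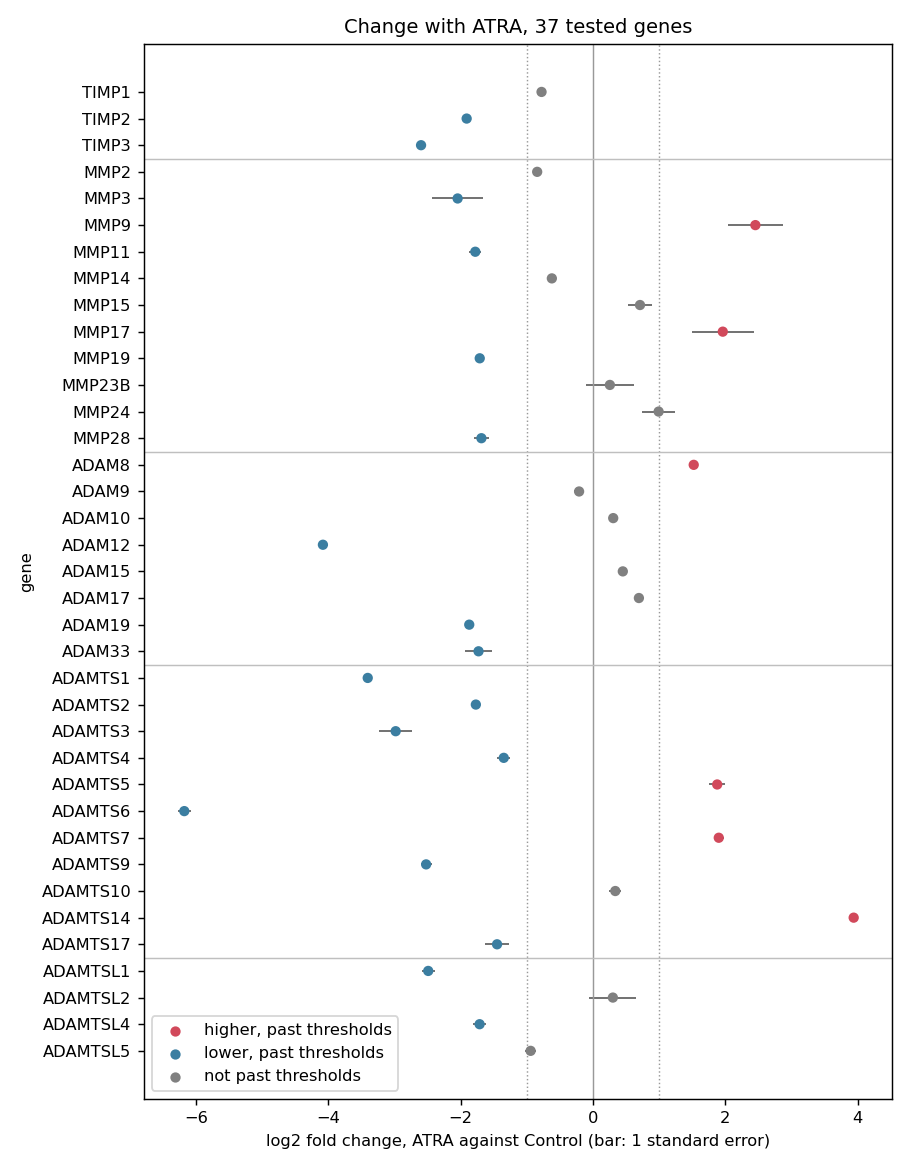
log₂FC (ATRA against Control) of the 37 tested genes with 1 standard error, in red and blue where the DEG rule was passed and in grey otherwise, with dotted lines at the fold threshold. ADAMTS14 (3.94) lies farthest to the right and ADAMTS6 (-6.18) farthest to the left, and no TIMP lies to the right of 0.

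Of the ADAMTS-like genes, whose products are non-catalytic matrix proteins, 3 of 4 tested fell. ADAMTSL1, also called punctin, was at 25.3, 25.8 and 26.1 normalized CPM in Control and at 4.33, 4.90 and 4.49 in ATRA (log₂FC -2.49, SE 0.0953, adjusted p = 2.4e-14 in edgeR). ADAMTSL4, a fibrillin-binding protein, was at 18.2, 17.7 and 19.8 in Control and at 5.83, 5.80 and 5.29 in ATRA (log₂FC -1.72, SE 0.101, adjusted p = 1.57e-11 in edgeR). ADAMTSL5 was at 55.6, 49.7 and 55.3 in Control and at 26.6, 30.8 and 26.1 in ATRA, short of the fold threshold (log₂FC -0.94, SE 0.0792, adjusted p = 3.21e-09 in edgeR). ADAMTSL2 was low and overlapped between groups, at 0.419, 0.649 and 0.311 in Control and 0.532, 0.589 and 0.580 in ATRA (log₂FC 0.30, SE 0.354, adjusted p = 0.443).

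The 20 members that were not tested had at most 18 counts in any library, and 12 of them had at most 3 in every library. Besides those given above, MMP27 had 10, 12 and 18 counts in Control and 0, 4 and 0 in ATRA. The others were ADAM11, ADAM21, ADAM32, ADAMTS13, ADAMTS15, ADAMTS16, ADAMTS20, ADAMTSL3, MMP12, and 2 rows each of ADAM30 and MMP25. Reads of near-identical copies, such as the paired rows of ADAM30 and MMP25 or the neighbours ADAM20 and ADAM21, may be split or lost in counting, and their values are uncertain. MMP27, MMP1, MMP3, MMP12 and MMP13 follow each other in the assembly, with MMP8 as the only coding gene among them, and no library had more than 50 counts for any of the 5.

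Summed over the family, the enzymes and the inhibitors both went down, the inhibitors more. The MMPs together were at 3148, 2765 and 2998 normalized CPM in Control and at 1638, 1649 and 1655 in ATRA. The TIMPs together were at 4125, 4008 and 4016 in Control and at 1186, 1081 and 1173 in ATRA. Within each library, which needs no scaling, MMP reads per TIMP read were 0.763, 0.690 and 0.746 in Control and 1.38, 1.53 and 1.41 in ATRA, so that TIMP reads outnumbered MMP reads in every Control library and the reverse held in every ATRA library. The sums went from 1318 to 909 for the ADAMs, from 899 to 441 for the ADAMTS genes and from 98.3 to 38.6 for the ADAMTS-like genes, as group means in normalized CPM. As a share of unscaled counts the ADAMs were at 0.110%, 0.110% and 0.115% in Control and at 0.101%, 0.117% and 0.105% in ATRA, which overlapped, whereas the other families stayed lower in ATRA. All members together took 0.791% of the counts in Control and 0.494% in ATRA.

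Some single pairs of enzyme and inhibitor shifted the same way, and others did not. ADAMTS1 (log₂FC -3.41) and ADAM12 (-4.08) fell more than TIMP3 (-2.60), and MMP2 (-0.85) fell about as much as TIMP1 (-0.78). The pairs below are those that shifted. Reads of MMP2 per read of TIMP2 went from a mean of 2.19 ± 0.116 (SD, n = 3) to 4.60 ± 0.225, and those of MMP14 per read of TIMP2 from 0.280 ± 0.0122 to 0.685 ± 0.0751. Reads of ADAM17 per read of TIMP3, its inhibitor, went from 0.0709 ± 0.00253 to 0.694 ± 0.0264. Those of ADAMTS5 per read of TIMP3 went from 0.00451 ± 0.000184 to 0.1000 ± 0.0173. These ratios did not overlap between groups. They are ratios of reads and not of proteins, and they follow from the changes given above, so no test was added.

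**Figure D3:**
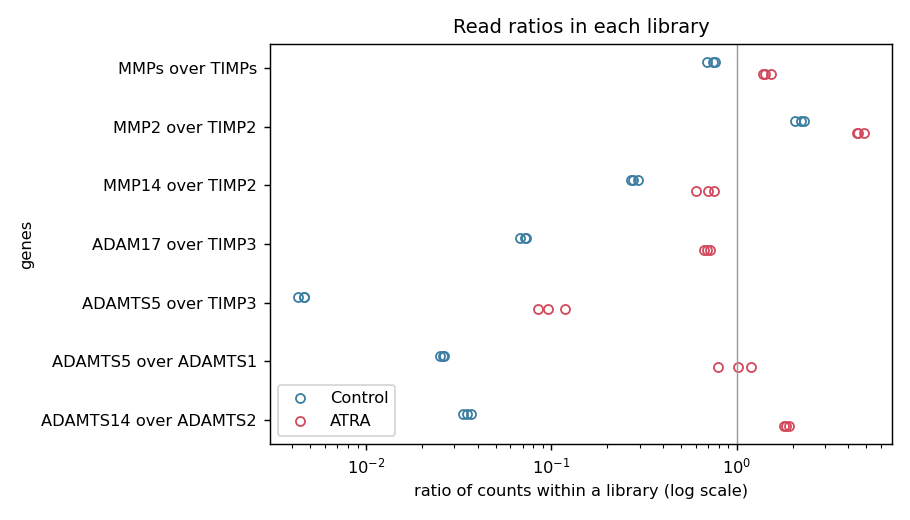
Ratios of reads within each library (log scale) for pairs and families, Control in blue and ATRA in red, with a vertical line at a ratio of 1. MMPs over TIMPs crossed from below 1 in every Control library (0.690 to 0.763) to above 1 in every ATRA library (1.38 to 1.53), as did ADAMTS14 over ADAMTS2.

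A list of 32 genes that activate, traffic or restrain these enzymes was also read, and 28 were tested. By the DEG rule 5 were higher and 8 lower, while 10 rose and 14 fell on the adjusted p, with a median log₂FC of -0.19. These are 17.9% and 28.6% of those tested by the DEG rule, beside 13.7% and 17.3% of all genes, and 35.7% and 50.0% by the adjusted p, beside 40.9% and 38.7%. Among the 5 higher, TSPAN15 and SPOCK2 passed the filter on low counts through the ATRA group alone. The 17.9% was thus partly fixed by the filter. The partners of ADAM17 changed in opposite directions. RHBDF2 (iRhom2), which carries ADAM17 to the cell surface, went from 7.12 ± 0.502 (SD, n = 3) to 76.3 ± 3.13 normalized CPM (log₂FC 3.42, SE 0.082, adjusted p = 2.14e-17 in edgeR), and RHBDF1 (iRhom1) from 67.3 ± 4.12 to 31.1 ± 1.36 (log₂FC -1.11, SE 0.0701, adjusted p = 4.77e-11 in edgeR). FRMD8, which stabilizes both iRhoms, fell less (log₂FC -0.49, adjusted p = 2.78e-05). Tetraspanins that bring ADAM10 to the membrane also moved, though not all of them. TSPAN15 had 3, 0 and 4 counts in Control and 176, 163 and 167 in ATRA, and since it passed the filter on low counts through the ATRA group alone, no fold is given. TSPAN33 (log₂FC 2.54), TSPAN14 (0.64) and TSPAN17 (0.22) rose, TSPAN5 (-0.31) fell, and TSPAN10 (-0.06, adjusted p = 0.882) did not pass the test. TSPAN33 had 14, 9 and 14 counts in Control and 99, 88 and 105 in ATRA, and only its ATRA libraries all met the filter.

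Among the activating proteases, PCSK6, a proprotein convertase, went from 158 ± 2.86 (SD, n = 3) to 8.83 ± 0.654 normalized CPM (log₂FC -4.17, SE 0.0729, adjusted p = 2.95e-19 in edgeR). FURIN, the convertase best known for activating MMP14 and the ADAMs, fell by less (log₂FC -0.33, adjusted p = 2.94e-05), while the convertases PCSK5 (0.80, adjusted p = 0.00383) and PCSK7 (0.67, adjusted p = 1.98e-06) rose. The procollagen C-proteinase BMP1, which works at the other end of the procollagen from ADAMTS2 and ADAMTS14, fell by less than the fold threshold (log₂FC -0.95). PCOLCE2 (-4.18) and PCOLCE (-2.36), of the same side, fell more. TLL2 (-3.79), listed with them, also fell. SPOCK1, a proteoglycan of the testican family, fell (log₂FC -3.57), as did THSD4, a relative of the ADAMTS-like genes (-2.75). SPOCK2, another testican, had 5, 4 and 6 counts in Control and 39, 13 and 30 in ATRA and passed the filter on low counts through the ATRA group alone. BSG (log₂FC -1.01), an inducer of MMPs, was lower and CD44 (1.23), which docks MMP9 and MMP14 at the membrane, was higher. RECK, a membrane-anchored inhibitor of MMPs and ADAM10, was at 56.7 ± 5.28 in Control and 59.5 ± 4.90 in ATRA (log₂FC 0.07, SE 0.0774, adjusted p = 0.402 in edgeR), and its groups overlapped.

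Of 31 known substrates on a second list, 22 were tested, of which 1 was higher and 14 were lower by the DEG rule, 3 rose and 17 fell on the adjusted p, and the median log₂FC was -1.69. By the DEG rule this was 4.55% and 63.6% of the tested substrates, beside 13.7% and 17.3% of all genes, and by the adjusted p 13.6% and 77.3%, beside 40.9% and 38.7%. The list was drawn up with earlier results of these data known. VCAN, COL1A1, COL1A2 and DCN are on it and also among the dermal papilla and fibroblast markers that fell. VCAN (versican), a substrate of the hyalectan-cutting ADAMTS enzymes, went from 1641 ± 63.6 (SD, n = 3) to 32.4 ± 3.11 normalized CPM (log₂FC -5.66, SE 0.0813, adjusted p = 2.79e-20 in edgeR). COL1A1 (log₂FC -5.62), COL3A1 (-4.77) and COL1A2 (-3.87), the fibrillar collagens whose propeptides ADAMTS2 and ADAMTS14 remove, all fell, so the rise of ADAMTS14 stood beside a fall of the collagen transcripts. FBN1 (log₂FC -1.84), whose microfibrils bind ADAMTS6 and ADAMTS10, and FN1 (-1.91) also fell. Of the shed proteins, HBEGF, a ligand released by ADAM17, was the DEG that was higher, going from 1.11 ± 0.133 to 19.3 ± 0.823 (log₂FC 4.12, SE 0.132, adjusted p = 1.8e-15 in edgeR). TGFA, another ADAM17 ligand, fell from 48.1 ± 1.25 to 2.43 ± 0.0448 (log₂FC -4.30, SE 0.0918, adjusted p = 4.25e-18 in edgeR), and EREG overlapped between groups (log₂FC -0.09, adjusted p = 0.467). Of the substrates of ADAM10, NOTCH1 (log₂FC 0.45) and APP (0.24) rose, while NOTCH2 (-0.78) and CDH2 (-3.90), N-cadherin, fell.

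The spread between libraries was small beside these changes. Over the 26 members with a mean of at least 10 normalized CPM over all libraries, the SD was a median of 5.61% of the mean in Control and 6.12% in ATRA, with the widest values at 14.1% for ADAMTS10 in Control and 19.8% for ADAMTS5 in ATRA. ATRA replicate 2 was the highest of its group for 10 of them and the lowest for 12, so it lay at an end of its group for most of them, though not always the same end. Directions held under each scaling except for ADAM9, but with library size as the only scaling MMP15 (1.19), ADAM17 (1.17) and MMP24 (1.47) became DEGs, and ADAMTS17 (-0.97) and ADAMTS4 (-0.87) no longer were. MMP24, at 0.99 just short of the fold threshold, also passed it under upper-quartile scaling (1.07). With the t.test function on log2(CPM + 1), which understates changes of low genes, MMP9 (0.76), MMP17 (0.38), MMP3 (-0.74) and ADAMTS17 (-0.997) were no longer DEGs.

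**Figure D4:**
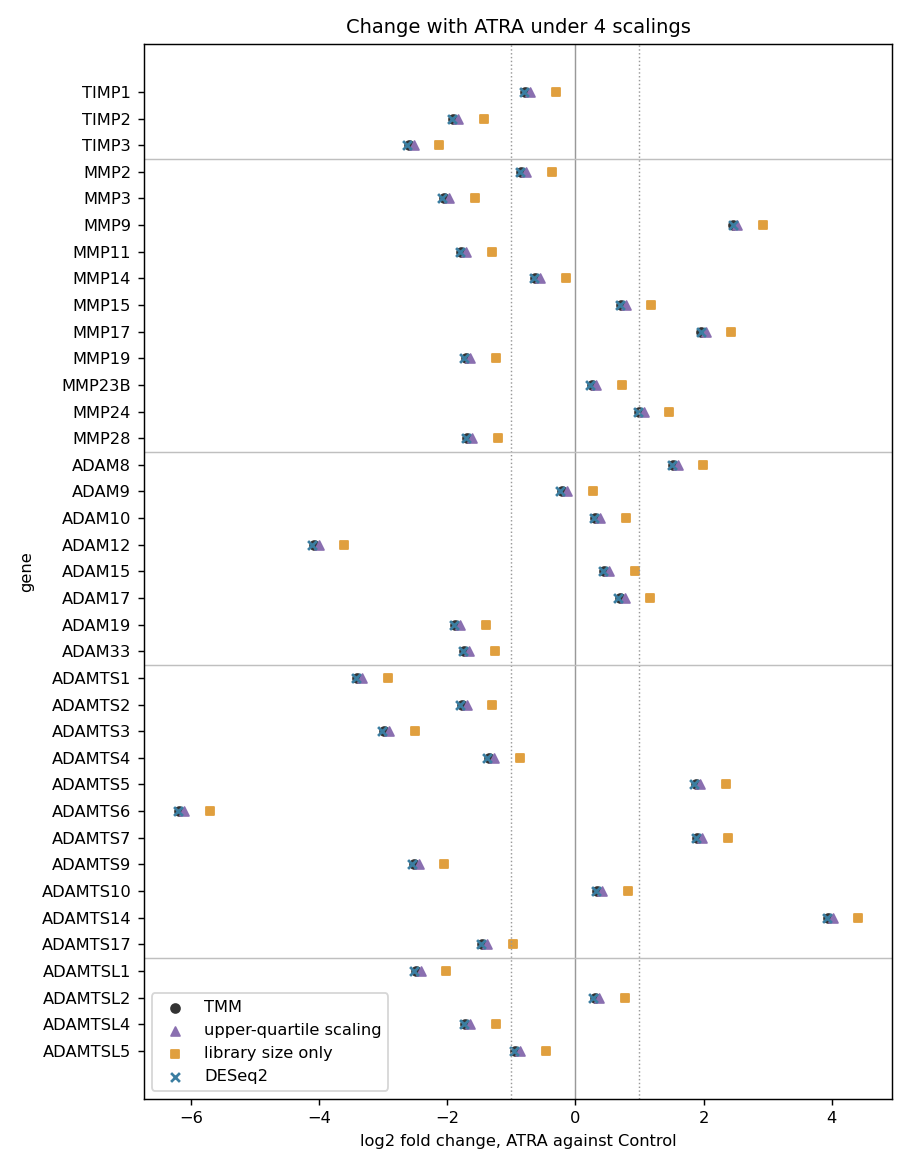
log₂FC (ATRA against Control) of the 37 tested genes under TMM, upper-quartile and library-size scaling in edgeR and under DESeq2, with dotted lines at the fold threshold. Library size alone places every gene 0.47 to 0.48 to the right of TMM, and ADAM9 is the gene that crosses 0 (from -0.21 to 0.27).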

How the data were processed

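Poly(A)-enriched RNA of 6 cultures was sequenced. The deposited table holds the authors' raw counts per gene. Per the paper's methods reads were cleaned with fastp and TrimGalore, and the submitters' processing notes name HISAT2, featureCounts and DESeq2 without versions. The genome build, annotation and strand setting are not given in the sources used here. All 15944 genes matched RefSeq symbols of assembly ARS1.2, used for names and neighbours only.

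Counts were fitted with edgeR 4.0.16 (R 4.3.3, limma 3.58.1) by the robust quasi-likelihood test, two-sided, after filterByExpr and TMM scaling, over 12588 genes, with Benjamini-Hochberg adjustment. The script was tested on simulated data. DEGs needed an absolute log₂FC above 1 and p under 0.05, the thresholds of the study. The study names the t.test function but not the scale or filter used with it. The t.test alternative here, on log2(CPM + 1), may thus differ from the study's own test. Because nothing in the labels says which libraries share an animal, p-values measure the spread between these libraries.

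The members and lists were chosen with earlier results of these data known. Values in every library were given for TIMPs, for DEGs with a mean of at least 1 normalized CPM in a group, and for members with at least 10 normalized CPM and an adjusted p of 0.05 or more (none). MMP1, MMP2, MMP9, MMP14, MMP15, MMP16, MMP17, MMP23B, MMP24, MMP27, ADAM9, ADAM10, ADAM15, ADAM17, ADAM20, ADAMTS10, ADAMTS12, ADAMTSL2 and ADAMTSL5, and the genes named from the lists of regulators and substrates, were chosen after their values were seen. Of the lists, 29 regulators and 29 substrates are in the table, and the rest were not analysed here. Of other cell markers, 2 of 6 endothelial, 1 of 6 keratinocyte and 1 of 3 melanocyte markers listed rose, and 1 melanocyte marker, PMEL, fell. Their summed levels were 6.26 to 9.18, 5.37 to 5.97 and 32.2 to 39.0 normalized CPM in ATRA. In Control they were 0.903 to 1.24, 3.11 to 4.98 and 16.1 to 17.6. Of the endothelial markers that rose, PECAM1 had 0 counts in each Control library and 242, 340 and 206 in ATRA. It passed the filter on low counts through the ATRA group alone, so its rise was partly fixed by the filter. PECAM1 made up most of the summed endothelial level in ATRA, at 5.60, 7.71 and 4.98 normalized CPM. Of all listed markers too low to test, KDR, KRT5 and KRT14 were lower and CDH1, ESAM, CD3E and SOX2 higher in every ATRA library. Each of these had at most 20 counts in any library. The part of these markers in the results was not tested. Alternatives were other scalings (RLE, upper quartile, library size), other filters on low counts, DESeq2 1.42.0, the t.test function on log2(CPM + 1), other thresholds, a ratio of means with a pseudocount of 1, a replicate block and leaving out each library.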

Additional observations from a re-analysis of the deposited data

How the results depend on the processing

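Under the 16 alternatives run for each count, 14 left the 6 higher members and 15 the 18 lower members within 1.5 times. With the adjusted p and no fold threshold there were 12 higher members, 24 changed regulators, 5151 higher genes and 4877 lower genes. With a log₂FC beyond 2 there were 2 higher and 8 lower members, and 669 higher and 1035 lower genes. Library size as the only scaling gave 3390 higher genes, 69.7% of calls being upward in place of 44.3%, and the t.test function gave 1093, with 4 higher and 16 lower members. Leaving out each library in turn gave 6 to 8 higher and 18 to 20 lower members, 1723 to 1825 higher and 2194 to 2245 lower genes, 12 to 14 changed regulators and 14 to 15 changed substrates. Of 551 log₂FC values of the 37 members under the alternatives, 527 kept their direction and their side of the adjusted p of 0.05 or, for the untested ratio of means, moved by less than the spread between libraries, whether or not they crossed the fold threshold. ADAM9 turned to 0.27 with library size alone and lost its adjusted p under upper-quartile scaling, the t.test function and 4 of the libraries left out (-0.35 to -0.14), and MMP23B, which was not called, was -0.15 without Control replicate 3 (-0.15 to 0.53 over all). ADAMTS10 and MMP24 lost their adjusted p under the t.test function, and ADAMTSL2 gained one with library size alone. Under the t.test function MMP9, MMP17, MMP3 and ADAMTS17 fell short of the fold threshold, and so they did with 1 added to each mean level before the log2 ratio, at 0.76, 0.39, -0.75 and -0.996. MMP24 passed it under upper-quartile scaling (1.07), the CPM filter (1.003), library size alone (1.47) and 3 of the libraries left out (up to 1.21), and ADAMTSL5 passed it with 2 of them left out (-1.002 and -1.03).

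A fit with the replicate number as a block gave 7 higher members, MMP24 (1.01) being added, 18 lower members, and 1731 higher and 2178 lower genes. Deviations of same-numbered libraries from their group means correlated at 0.0892, 0.0299 and -0.0764, so the numbers were not taken to pair the samples. The 20 untested members were too low to test at this depth, and 12 of them had at most 3 counts in every library.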
